A study of Caenorhabditis elegans with 2 samples.

Results

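The sites described here are places in the Caenorhabditis elegans genome where an antibody against green fluorescent protein (GFP) recovered chromatin in front of exactly 1 protein-coding gene. They were chosen by the peak calls themselves. A site belonged to the set when the strongest summit of a merged peak in the authors' conservative list lay from 1000 bp upstream to 200 bp downstream of a transcript's 5′ end, when this held for 1 protein-coding gene and no more, and when no tRNA, snoRNA, snRNA or miRNA gene lay within 200 bp. Of 1266 sites in the conservative list, 301 (23.8%) met the rule, at 290 genes. Other sites lay in promoters of 2 genes or, for 5 of them, of 3 or more, and the 301 made up 74% of the 407 promoter sites away from small RNA genes. The remaining sites lay in no promoter (528) or at a small RNA gene (331).

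The assay was chromatin immunoprecipitation with sequencing (ChIP-seq), in which cross-linked chromatin is broken by sonication and the fragments bound to a tagged protein are pulled down and sequenced. The design had 1 group of 2 biological replicates of whole mid-embryos aged 3.5 hours, collected by egg bleaching from strain OP787. Its transgene, wgIs787, carries T27A8.2 fused to TY1, EGFP and 3xFLAG tags together with unc-119(+), and both replicates carry it on the mutant background unc-119(tm4063). The labels name tab-1 as the target while the genotype puts the tag on T27A8.2, and "labelled tab-1" is used here for the samples. No group without the tag was part of these samples, and the control experiment that the labels point to was not analysed here. All animals of an embryo sample were processed whole, so a site cannot be placed in a tissue.

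As background, the promoter of a worm gene usually lies in a short stretch of open chromatin just upstream of the gene, where transcription factors bind and RNA polymerase starts. Many worm messages receive a spliced leader near their 5′ end, so an annotated 5′ end can mark the point of trans-splicing and the start of transcription can lie further upstream. Genes in operons follow a neighbour on the same strand closely and share the promoter of the first gene. tab-1 is a homeobox gene, and homeodomain proteins as a family commonly bind DNA with a TAAT core.

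The DNA at the strongest sites is shown first, because base content and short words set the sites apart from their surroundings in the values that follow. Each sequence holds the summit and 100 bp to either side of it, from the RefSeq copy of WBcel235 (the same assembly as ce11), written 5′ to 3′ along the strand of the gene. The windows shown touch no annotated exon. Capitals mark the word GCGCGC, the word GAGAGA read on either strand, and both ends of a spaced word, on either strand. The spaced word begins with TGCGG and, after 5 bases of any kind, ends in TTGC. The first 5 are the strongest members that could be shown. K12H4.5 lies at chrIII:8043878-8044078 on the + strand, C46F11.4 at chrIII:3664322-3664522 on the − strand, plrg-1 at chrV:10808008-10808208 on the − strand, F39G3.3 at chrV:4731471-4731671 on the + strand and M01F1.9 at chrIII:3499935-3500135 on the − strand.
K12H4.5: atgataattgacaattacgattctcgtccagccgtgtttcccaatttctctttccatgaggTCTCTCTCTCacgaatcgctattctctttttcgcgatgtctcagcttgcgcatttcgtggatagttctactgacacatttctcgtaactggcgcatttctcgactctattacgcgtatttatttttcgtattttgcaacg
C46F11.4: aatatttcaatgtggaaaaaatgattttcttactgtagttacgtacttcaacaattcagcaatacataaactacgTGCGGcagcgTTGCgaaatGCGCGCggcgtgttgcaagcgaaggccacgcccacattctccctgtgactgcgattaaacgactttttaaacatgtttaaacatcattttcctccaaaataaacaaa
plrg-1: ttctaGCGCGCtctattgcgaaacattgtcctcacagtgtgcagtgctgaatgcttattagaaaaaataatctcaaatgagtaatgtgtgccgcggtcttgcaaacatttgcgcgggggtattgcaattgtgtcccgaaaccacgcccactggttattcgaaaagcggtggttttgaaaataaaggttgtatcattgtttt
F39G3.3: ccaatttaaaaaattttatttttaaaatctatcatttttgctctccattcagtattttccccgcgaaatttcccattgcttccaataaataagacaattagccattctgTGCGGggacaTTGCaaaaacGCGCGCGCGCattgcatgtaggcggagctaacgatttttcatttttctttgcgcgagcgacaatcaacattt
M01F1.9: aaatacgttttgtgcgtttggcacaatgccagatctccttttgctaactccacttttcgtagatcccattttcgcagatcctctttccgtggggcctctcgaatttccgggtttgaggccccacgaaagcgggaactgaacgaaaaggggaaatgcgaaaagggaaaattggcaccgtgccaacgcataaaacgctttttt

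The next 4 are the strongest with GCGCGC among the remaining members that could be shown and whose windows touch no exon. GCGCGC was the searched word that exceeded the flanking DNA by the widest margin. ccdc-47 lies at chrIII:3916736-3916936 on the + strand, F44E7.4 at chrV:5777098-5777298 on the − strand, npp-18 at chrIII:13296343-13296543 on the + strand and swsn-3 at chrIII:2768744-2768944 on the − strand.
ccdc-47: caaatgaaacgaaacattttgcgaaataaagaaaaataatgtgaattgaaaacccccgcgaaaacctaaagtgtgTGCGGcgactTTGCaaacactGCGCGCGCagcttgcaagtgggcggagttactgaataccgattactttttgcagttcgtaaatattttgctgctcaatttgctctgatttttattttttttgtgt
F44E7.4: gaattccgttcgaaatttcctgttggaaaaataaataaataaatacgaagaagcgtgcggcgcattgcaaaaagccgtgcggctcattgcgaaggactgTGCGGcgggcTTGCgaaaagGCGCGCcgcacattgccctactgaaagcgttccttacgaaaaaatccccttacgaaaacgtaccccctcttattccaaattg
npp-18: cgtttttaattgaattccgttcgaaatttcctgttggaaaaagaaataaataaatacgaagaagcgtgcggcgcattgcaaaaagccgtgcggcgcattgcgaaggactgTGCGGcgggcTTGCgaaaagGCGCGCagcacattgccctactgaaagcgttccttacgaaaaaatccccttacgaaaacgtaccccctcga
swsn-3: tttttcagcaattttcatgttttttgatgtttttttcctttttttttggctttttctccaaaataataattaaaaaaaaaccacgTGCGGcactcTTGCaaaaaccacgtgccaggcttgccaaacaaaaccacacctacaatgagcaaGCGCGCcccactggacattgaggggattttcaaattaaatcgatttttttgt

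Of these 9 windows, 6 held the spaced word, those of C46F11.4, F39G3.3, ccdc-47, F44E7.4, npp-18 and swsn-3. The K12H4.5 window held a run of TCTC and no GCGCGC. The windows of F44E7.4 and npp-18, on different chromosomes, were near copies of each other, with 186 of 212 aligned columns (87.7%) identical.

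Each site carries a signal from the authors' peak caller on a scale that is not stated, so it serves here only to rank and describe sites. The strongest single-gene site lay at −509 bp from the 5′ end of K12H4.5 (WBGene00019680), upstream and outside any protein-coding gene. Its combined signal was 528.5, with 240.2 in replicate 1 and 309.1 in replicate 2. T13C5.6 followed at 504.8, with 233.1 and 270.9, its summit at −177 bp on chromosome X. Both stood clear of the third, K05C4.2, at 331.0 with 141.6 and 191.6. C46F11.4 came next at 321.8, with 132.9 and 182.9, its summit at −118 bp. These 4 were the only members among the 100 strongest sites of the whole list, at ranks 15, 21, 79 and 85.

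Below them the signals were closely spaced. plrg-1, whose product is a spliceosome-associated WD-repeat protein, had 115.4 in replicate 1 and 167.8 in replicate 2. dhs-8, a short-chain dehydrogenase, had 116.7 and 162.4, with a summit at −991 bp, close to the edge of the promoter window. F39G3.3 had 121.4 and 161.3. In all 3, replicate 2 was the higher. M01F1.9 and ZK816.3 went the other way, with 157.2 and 106.8 at the former and 143.1 and 113.1 at the latter. W01D2.3 was near even at 107.0 and 105.2, as was mrck-1, a kinase related to the Cdc42-binding kinases, at 111.1 and 123.4. F08G2.5 was the least even of the 25 strongest, with 73.9 against 178.6.

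The rest of the 25 strongest lay between combined signals of 177.3 and 243.4. They were tpra-1, eel-1 (a HECT-type ubiquitin ligase), ccdc-47, rpl-3, F44E7.4, npp-18, K05C4.7, swsn-3, fbxl-2, sms-3 (a sphingomyelin synthase), Y62F5A.12, R148.3 and rpl-35. Among these, npp-18, a nuclear pore protein, was almost equal in the replicates at 98.8 and 100.8, and rpl-3, a large-subunit ribosomal protein, was the most uneven at 68.8 and 148.8. The 25 strongest were narrow: 17 of them were under 200 bp wide, against 20 of all 301 (6.64%), and 266 members shared a width of 304 bp. Chromosome III held 11 of the 25 and chromosome X held 2.

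The single-gene promoters were weaker than the 2-gene promoters and the small RNA gene sites, and close to the sites in no promoter. Their combined signal ran from 28.7 to 528.5 with a median of 89.8 and quartiles of 77.6 and 109.5. The median was 108.9 at the 2-gene promoters, 84.6 at sites in no promoter and 182.8 at the small RNA gene sites. Of the 301, 58 were among the 400 strongest sites of the list and 113 among the 400 weakest. The rule that formed these classes used the peak list, so the differences are given as description with no test.

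Few of the sites were found in each replicate alone. Besides the list that joins the replicates, the authors deposited a thresholded list for each replicate. Of the 301 sites, 47 (15.6%, 95% Wilson interval 12 to 20.1) overlapped a peak by at least 1 bp in both of these own lists, where all 1266 sites had 28.3%. The share was 31.7% at the 2-gene promoters (23.4 to 41.3), 10% at sites in no promoter (7.76 to 12.9) and 67.7% at small RNA gene sites (62.5 to 72.5). A further 62 single-gene sites (20.6%) were in the own list of replicate 2 only, 16 (5.32%) in that of replicate 1 only, and 176 (58.5%) in neither. The own list of replicate 2 was the longer, at 726 nuclear sites against 453. Intervals here and below cover counting error over sites and no other source of spread.

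This agreement lay almost wholly in the strong sites. Of the 25 strongest, 22 (88%) were in both own lists, of ranks 26 to 75 there were 23 of 50 (46%), of ranks 76 to 150 there were 2 of 75 (2.67%), and of the last 151 sites there was none. Among those last 151, 135 (89.4%) were in neither own list. Median combined signal was 157.1 for sites in both own lists, 104.7 for replicate 2 only, 96.3 for replicate 1 only and 80.4 for neither. Signal and list membership come from the same libraries, so these values describe the lists and are not a test.

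**Figure D1:**
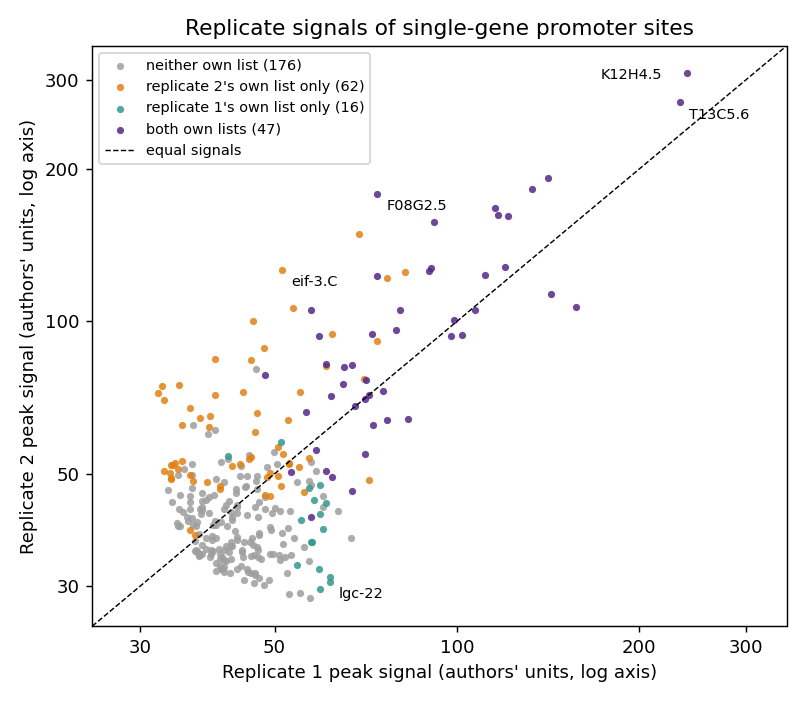
Peak signal of each of the 301 single-gene promoter sites in replicate 1 (horizontal, log axis) and replicate 2 (vertical, log axis), in the authors' units, coloured by the replicate's own thresholded list that holds the site, with the dashed line at equal signals. The 47 sites in both own lists reach up to 240.2 and 309.1 at K12H4.5, while the 176 sites in neither list fill the low corner.

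Within the set the 2 replicates gave signals of like size. The median was 45.8 in replicate 1, with a range from 32.1 to 240.2, and 44.4 in replicate 2, with a range from 28.4 to 309.1. Replicate 1 was the higher at 156 sites and replicate 2 at 145, and 242 sites lay within 1.5-fold. The order of the sites matched only loosely. The Spearman correlation over the 301 sites was 0.324 and Pearson's r 0.821. Within ranks by combined signal, Spearman's value was positive only in the 25 strongest, at 0.376. It was −0.103 over ranks 26 to 75, −0.549 over ranks 76 to 150 and −0.492 over ranks 151 to 301. The ranks are cut on a signal that combines both replicates. Low or negative values within a bin are therefore partly built in and do not measure agreement. The Spearman value was 0.639 over the 2-gene promoters, 0.114 over sites in no promoter and 0.891 over small RNA gene sites. The sites within each set share both libraries and were chosen through the combined list, so the correlations are descriptions.

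The ratio of replicate 2 to replicate 1 moved with strength. Its median was 1.33 over the 25 strongest sites, 1.23 over ranks 26 to 75, 0.99 over ranks 76 to 150 and 0.923 over the rest. The highest ratio belonged to eif-3.C, a subunit of translation initiation factor 3, with 51.5 in replicate 1 and 126.5 in replicate 2 (2.46). F08G2.5 followed at 2.42, then F26F2.7 with 32.6 and 74.4 (2.28) and vig-1 with 32.1 and 72.1 (2.25). The lowest belonged to lgc-22, a ligand-gated ion channel gene, with 61.7 and 30.6 (0.495), and its summit lay in a coding exon 90 bp inside the gene. T14G12.6 had 57.3 and 28.4 (0.496), rib-1, a glycosyltransferase of heparan sulfate synthesis, 59.5 and 29.6 (0.498), and F52C12.2 61.7 and 31.3 (0.508). eif-3.C was in the own list of replicate 2 only and lgc-22 in that of replicate 1 only.

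Most summits lay a short way upstream of an annotated 5′ end of the gene. The median position was −297 bp from the nearest 5′ end (95% order-statistic interval −345 to −251), with quartiles at −551 and −131. For comparison, 18000 candidates of the ranked list, merged in the same way and holding the same place relative to genes, had a median of −362. The 301 sites are among these candidates. Upstream of the 5′ end lay 271 of the 301 (90%, 86.1 to 92.9) against 79.8% of candidates. The 300 bp just before the 5′ end held 122 sites (40.5%, 35.1 to 46.2) against 24.9%. The fullest 100 bp were those from −200 to −100, with 51 sites (16.9%) against 8.88% of candidates. At or past the nearest 5′ end lay 30 sites (9.97%) against 20.2%, and beyond −500 lay 90 (29.9%) against 38.9%. A gene can have several annotated 5′ ends, so a summit before an internal one counts as upstream though it lies within the gene.

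**Figure D2:**
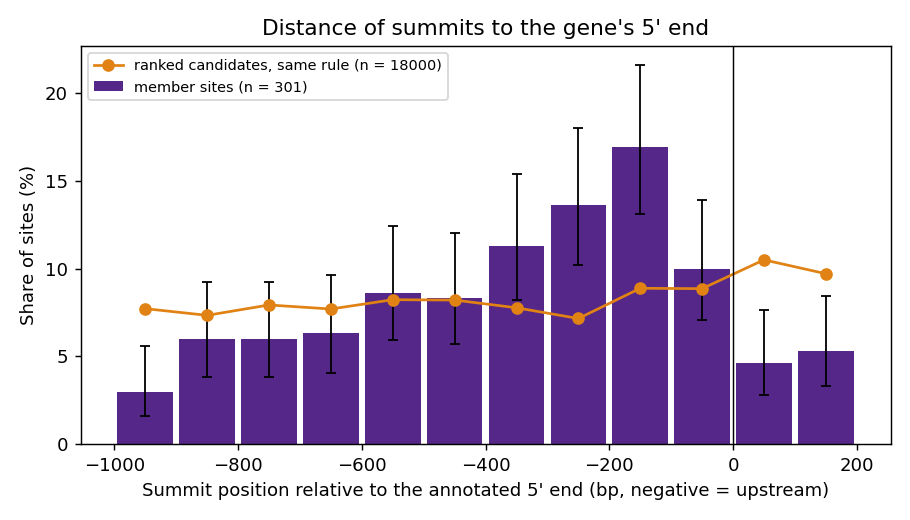
Share of summits (vertical, %) in each 100 bp from 1000 bp upstream to 200 bp downstream of the annotated 5′ end (horizontal, bp). Bars are the 301 member sites with 95% Wilson intervals, and the line shows the 18000 ranked candidates under the same position rule; the bars peak at 16.9% between −200 and −100, where the line is at 8.88%.

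Summits were seldom in coding sequence. Outside any protein-coding gene lay 190 (63.1%, 57.5 to 68.4) against 41.3% of candidates, and in a coding exon 24 (7.97%, 5.42 to 11.6) against 26.6%. Non-coding genes were not counted here. Introns held 71 (23.6%) against 24.3%, and untranslated exons 16 (5.32%) against 7.77%. Sites outside protein-coding genes had a median signal of 94.2 and those in coding exons 79.9. An intron or exon here can belong to a neighbouring gene or to another transcript of the same gene.

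Sites lay close to either side of the promoter window's edges. Just inside the upstream edge were dhs-8 and C55C2.3 at −991 and T24B8.4 at −980, and just outside it T28F4.1 at −1004, bed-2 at −1014 and ain-1 at −1020. Downstream, C44C11.6 at 191, sms-3 at 180 and mdt-8 at 169 were inside, and ZK470.2 at 209, nrsn-1 at 236 and aqp-2 at 242 outside. The weakest members were elt-6 at a signal of 28.7, his-32 at 53.6 and ptr-21 at 54.5. Candidates that met the position rule but were not in the conservative list reached higher, with 878.8 at Y80D4G.2, 524.5 at Y62E10A.3 and 119.7 at fust-1. The limit on small RNA genes fell in a gap, and a limit of 100 bp gave the same number of sites, 301. The member nearest to a small RNA gene was F37F2.2, at 299 bp. T22F3.2 and cdc-48.1 followed at 493 and 502 bp, and C40A11.4, F59C6.18 and T28F2.1, left out for a small RNA gene, had it at 88, 75 and 69 bp.

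Other non-coding genes were not part of the rule, and some sites lay at them. Within 200 bp of an annotated ncRNA gene or pseudogene were 53 of the 301 (17.6%), 51 at an ncRNA gene and 3 at a pseudogene, 1 of them at both, against 6.98% of candidates. They included 6 of the 25 strongest, T13C5.6 among them. Their median signal was 91.4 and that of the others 89.4.

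Operon position could be described only by the neighbours in the gene annotation. Of the 290 genes, 50 (17.2%, 13.3 to 22) had a neighbour on the same strand that ended less than 500 bp before the 5′ end, as a downstream gene of an operon would. Among the 10474 genes with a candidate in the same place, 20.9% did. A same-strand neighbour starting less than 500 bp after the gene was found for 68 (23.4%, 18.9 to 28.7) against 18.2%. With a gap of under 250 bp the contrast was wider: 22 genes (7.59%, 5.06 to 11.2) against 13.2% had a neighbour before them, and 55 (19%, 14.9 to 23.9) against 11.8% had one after them. Genes with a close neighbour after but not before them, the place of the first gene in a cluster, were 49 (16.9%, 13 to 21.6) against 9.01%. This contrast was smaller at wider gaps. It was 17.2% (13.3 to 22) against 12.6% at 500 bp. At 1000 bp it was 20.7% (16.4 to 25.7) against 16.7%, which is inside the interval.

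The sites were spread unevenly over chromosomes. Chromosome X held 76 (25.2%, 20.7 to 30.4), where 14.6% of candidates and 14.5% of background genes lie. Chromosome I held 52 sites (17.3% against 16.9% of candidates), II 56 (18.6% against 18.7%) and III 36 (12%, 8.77 to 16.1, against 15.2%). Chromosome IV held 32 (10.6%, 7.63 to 14.6, against 14.7%) and V 49 (16.3%, 12.5 to 20.9, against 19.9%). Chromosome III had the highest median signal, 107.3, and 10 of its 36 sites (27.8%) were in both own lists. X had a median signal of 90 and 11 of 76 (14.5%) in both. By rank, X held 2 of the 25 strongest sites, 16 of the next 50, 20 of the next 75 and 38 of the last 151. Base content was highest on X as well, with a mean G+C of 52.1% at its sites and 45.4% on III.

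The genes behind the sites came from many classes. Of the 10474 protein-coding genes with a candidate meeting the position rule, 290 (2.77%) had a member site, and the counts below are read against that background. The classes are lists of gene symbols, and 47 of the 1745 background genes in any list (2.69%) had a site, a share near the background. A list can miss genes of its kind, so each count holds for the list and not for the whole class. Members named below as being in none of the lists are examples, and others, such as cki-1, xbp-1 and ser-1, are in none either. Some lists of genes for protein synthesis lay above it. Cytosolic ribosomal proteins had 5 of 43 (11.6%, 5.07 to 24.5): rpl-3 at a combined signal of 220.1, rpl-35 at 177.3, rps-24 at 138.0, rpl-41.2 at 98.4 and rpl-14 at 94.1. Their summits lay from −439 to −272 bp. rpl-35 was the only one in both own lists, and rpl-41.2 was in neither. In the own list of replicate 1 alone the share was 2.33%, where 0.697% of background genes had a site, and in that of replicate 2 it was 11.6% against 1.53%.

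Translation factors had 4 of 20 (20%, 8.07 to 41.6). Beside eif-3.C these were eef-1A.2, an elongation factor 1A gene, with 65.2 and 81.4 in replicates 1 and 2, eif-2beta with 45.8 and 34.4, and eif-3.I with 37.5 and 38.1. Only eef-1A.2 was in both own lists. The aminoacyl-tRNA synthetases (0 of 23) and mitochondrial ribosomal proteins (0 of 42) had no site, with intervals reaching up to 14.3% and 8.38%.

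The list of respiratory chain and ATP synthase genes had 4 of 29 (13.8%, 5.5 to 30.6). cox-5B, a cytochrome c oxidase subunit, was the strongest, with 75.5 and 72.9 in the replicates and a summit at −4 bp. cyc-1, the cytochrome c1 gene, had 52.9 and 52.4, nuo-2 of complex I had 46.4 and 42.9, and asb-2 of ATP synthase had 34.9 and 45.5. Replicates were close in all 4, and cox-5B was the only one in both own lists. The member ndua-1, named below for the spaced word, is in none of the lists.

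Genes for chromatin and the nucleus made up another part. Histones had 4 of 29 (13.8%, 5.5 to 30.6): the H4 gene his-37 at 88.4, the linker histone genes hil-3 at 88.0 and his-24 at 84.7, and the H3 gene his-32 at 53.6. None was in both own lists, and many histone genes are near-identical copies, so reads at them may be shared. Chromatin regulators had 5 of 56 (8.93%, 3.87 to 19.3). swsn-3 and swsn-7, both of the SWI/SNF remodelling complex, had 199.5 and 91.4, bet-2 of the bromodomain family had 108.0, met-1, a histone H3 lysine methyltransferase, had 79.8, and hmg-1.1 had 71.3. Nuclear pore genes had 2 of 17 (11.8%, 3.29 to 34.3), npp-18 at 205.8 and npp-8 at 157.1, and both were in both own lists.

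Transcription factor genes were counted by list. The list of homeobox genes had 2 of 60 (3.33%, 0.919 to 11.4), ceh-39 of the onecut class at 93.4 and ceh-32 of the sine oculis class at 69.1. The member unc-62, a homeobox gene with a site at 57.9, is in none of the lists. The list of other transcription factors had 4 of 79 (5.06%, 1.99 to 12.3): atf-6, which acts in the unfolded protein response, at 110.2, sox-2 at 82.1, sem-5 at 77.0 and the GATA factor gene elt-6 at 28.7. sem-5 encodes a signalling adaptor and is in that list by its symbol. Nuclear hormone receptors, a large family in worms, had 1 of 138 (0.725%, 0.128 to 3.99), nhr-48, with 48.3 and 78.2 in the replicates and a place in both own lists. RNA polymerases and general factors had 1 of 39, taf-6.1 at 61.8, and chaperones 1 of 37, dnj-5 at 92.8.

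Cell cycle genes had 2 of 38 (5.26%), cdc-48.1, an AAA ATPase, at 149.3 and mdf-1, a spindle checkpoint gene, at 79.3. Cytoskeleton genes had 2 of 28 (7.14%), the alpha-tubulin gene tba-2 at 108.5 and the actin gene act-4 at 74.0. Their intervals include the background. Among large families, chemoreceptors had 5 of 419 (1.19%, 0.511 to 2.76), srbc-38, srv-3, srab-10, srh-87 and sri-48, of which srbc-38 was strongest at 153.2. The list of F-box, MATH and C-type lectin genes had 2 of 322 (0.621%, 0.17 to 2.24), btb-6 and fbxb-62, both there by their symbols. The member fbxl-2, an F-box gene named above among the strongest, is in none of the lists. Ion channels, with 2 of 67 (2.99%, 0.822 to 10.2), lgc-27 and lgc-22, and neuropeptides and insulins, with 1 of 69 (1.45%, 0.256 to 7.76), ins-27, had intervals that include the background. Cuticle collagens had 0 of 103, with an upper bound of 3.6%. The lists of splicing proteins (0 of 34), proteasome (0 of 18), vacuolar ATPase (0 of 13) and small GTPases (0 of 23) had no site either. The member plrg-1, named above as spliceosome-associated, is in none of the lists.

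**Figure D3:**
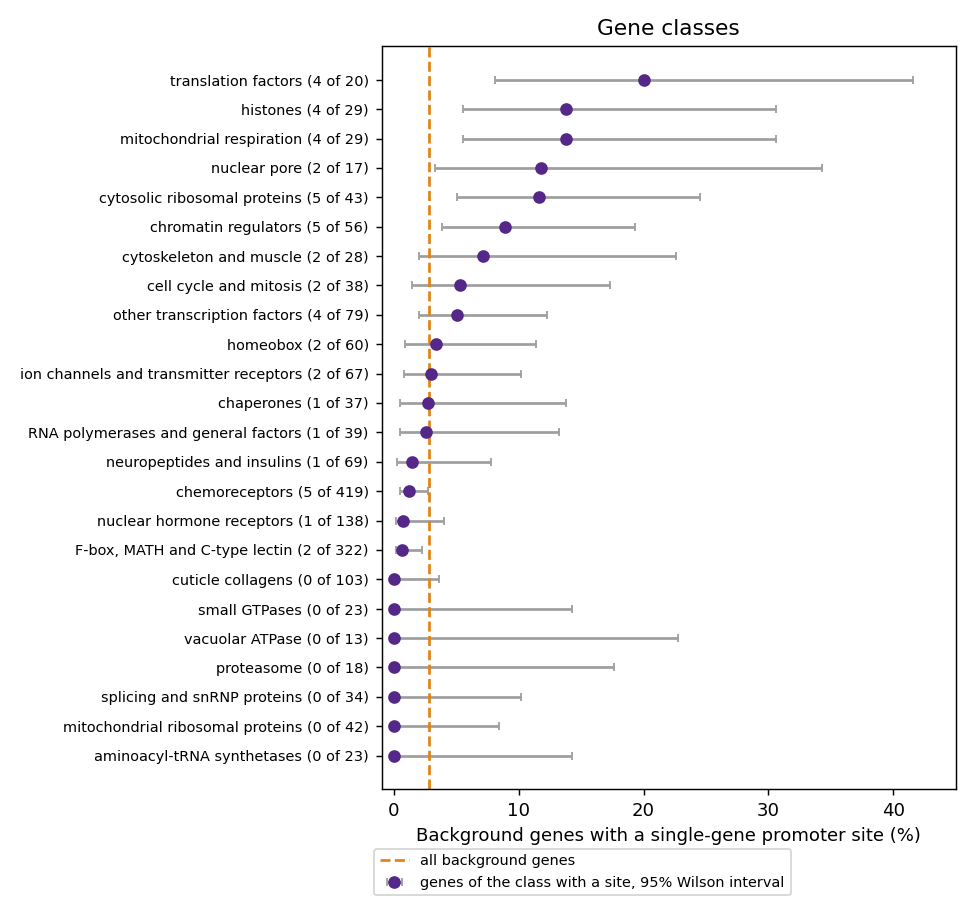
Share of the background genes of each class that had a single-gene promoter site (horizontal, %), with 95% Wilson intervals over genes and the counts beside each class name; the dashed line is the 2.77% of all 10474 background genes. Each class is a list of gene symbols and can miss genes of its kind. The lists of translation factors (20%), histones and respiration (13.8% each) lie to the right of the line. The list of F-box, MATH and C-type lectin genes (0.621%) lies to its left.

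A total of 11 genes had 2 sites each. They were F13E9.11, F47G4.5, K04B12.2, T02E1.2, T24B8.3, W01D2.3, Y43F8B.2, eel-1, lgg-1, mnk-1 and sms-3. lgg-1 encodes the Atg8 protein of autophagosomes and mnk-1 a kinase of the MAP kinase pathway. No gene had more than 2. Of the 290 genes, 96 (33.1%) are named only by their sequence, against 43.5% of background genes.

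The sites were rich in G and C within DNA that was not. Mean G+C from 100 bp before to 100 bp after the summit was 49.1% ± 7.02 (SD, n = 301 sites), against 36.7% in windows of the same width 500 bp to either side and 39.5% at the candidates. The site exceeded its own flanks at 269 of 301 (89.4%). The dinucleotide CpG, C followed by G, occurred 13 times per window on average and 7.04 times in the flanks. The rise was narrow: in 51 bp windows the mean was 53% at the summit, 43.6% at 100 bp upstream and 37.4% at 200 bp upstream. The strongest sites were less rich than the others, with 43.8% in the 25 strongest against 49 to 50.4% in the lower ranks. The 2-gene promoters had 45%, sites in no promoter 49.4%, small RNA gene sites 47.7% and all sites of the list 48.5%, so the richness was shared by the whole list. G+C can affect how well DNA is recovered and sequenced, and its part in these values was not tested.

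**Figure D4:**
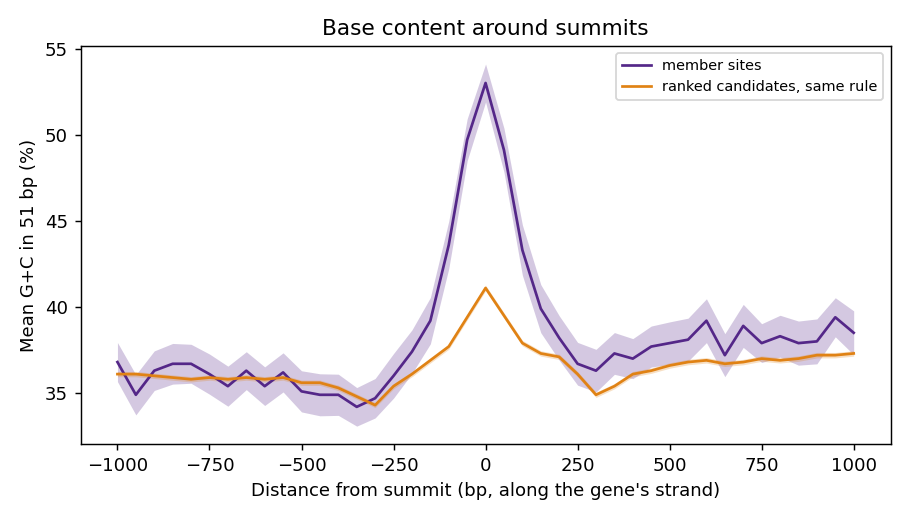
Mean G+C (vertical, %) in 51 bp windows from 1000 bp before to 1000 bp after the summit along the strand of the gene (horizontal, bp), for the member sites and for ranked candidates under the same position rule; bands are 95% normal intervals over sites. The member line rises to 53% at the summit.

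Short words differed as well. GCGCGC occurred in 61 of 301 windows (20.3%, 16.1 to 25.2), in 2.16% of flanks and in 3.31% of candidates. GAGAGA or TCTCTC occurred in 79 (26.2%, 21.6 to 31.5), in 10.8% of flanks and 14.3% of candidates. CCGCCC was in 18.6% (14.6 to 23.4) against 4.15% and 6.48%, and TGCGTC in 17.3% (13.4 to 22) against 6.48% and 6.68%. The 2-gene promoters had 21.8% for GCGCGC and 24.8% for GAGAGA, both within the intervals above. They had more for CCGCCC, with 28.7% (20.8 to 38.2), and for TGCGTC, with 23.8% (16.5 to 32.9), but these intervals overlap those above. The word GCGCGC was more frequent in strong sites, with 11 of the 25 strongest (44%) against 24 of the last 151 (15.9%), whereas GAGAGA was not, with 20% and 25.2%. Only 18 sites held both words, and 179 (59.5%) held neither.

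Words rich in A and T were rarer at the summits than beside them. TAATTA, which holds the TAAT core, was in 12 windows (3.99%, 2.3 to 6.84) against 9.14% of flanks and 7.63% of candidates. TATTAA, of the same base composition, was in 6.64% against 18.8% and 12.2%. TATAAA had 7.64% against 20.8% and 16.7%, GATAAG 3.99% against 9.47% and 7.6%, and TTTCAG, the usual end of a worm intron, 13.3% against 37.2% and 32.7%. CACGTG was in 6.64% against 3.65% and 4.77%, and GTTCGA, a stretch of the internal promoter of tRNA genes, in 7.31% against 6.15% and 7.08%. All words were searched on both strands, and a match is a string of letters and no evidence of binding.

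Some of the printed sequences, but not all, share a longer pattern. TGCGG and TTGC, 5 bases apart, stood within the windows of 21 of the 301 sites (6.98%, 4.61 to 10.4), 1 of 602 flanks (0.166%) and 58 of 17699 candidates outside the list (0.328%). The word was chosen after reading the strongest sequences, so its count there is a description. Leaving out the 6 printed sites that hold it, 15 of 295 (5.08%) had it. It was in 18 of the 2-gene promoters (17.8%), 6 of 528 sites in no promoter (1.14%) and 0 of 331 small RNA gene sites. Among single-gene sites it was in 8 of the 25 strongest (32%), 6 of which are the printed windows it was read from, which leaves 2 of 19 (10.5%). It was in 6 of the next 50 (12%), 3 of the next 75 (4%) and 4 of the last 151 (2.65%). With a spacer of 4 bases, 10 sites (3.32%) had it, and with any other spacer from 0 to 10 at most 2.

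Median signal was 149.7 at the 21 sites with the spaced word and 88.3 at the remaining 280, and 12 of the 21 (57.1%, 36.5 to 75.5) were in both own lists, against 35 of the 280 (12.5%). Reading the word off strong, printed sites fixes part of this. Over the 15 sites that were not printed the median was 112.4, and 7 (46.7%) were in both own lists. These 15 are not free of that choice. They include mtcu-2, Y48G10A.2, vps-39 and F09E5.8, which share long runs of bases with the printed F44E7.4 and npp-18. Of these, mtcu-2 and Y48G10A.2 are in both own lists. The word's centre lay a median of 16.5 bp from the summit, within 50 bp in 19 of 21. All 21 summits were upstream of the gene's nearest 5′ end, from −501 to −62 with a median of −203. Mean G+C was 43.3%, against 49.5% for the rest, and 15 of the 21 windows, or 9 of the 15 not printed, also held GCGCGC. K05C4.2 was the strongest at 141.6 and 191.6 in the replicates and atg-18, an autophagy gene, the weakest at 39.4 and 37.7. Between them came C46F11.4, F39G3.3, ccdc-47, F44E7.4, npp-18, swsn-3, R148.3, T22F3.2, npp-8, dlst-1, mtcu-2, gtsf-1, Y48G10A.2, vps-39, ent-6, rrsr-1, F09E5.8, ndua-1 and mdf-1. dlst-1 encodes a subunit of the oxoglutarate dehydrogenase complex and ent-6 a nucleoside transporter.

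**Figure D5:**
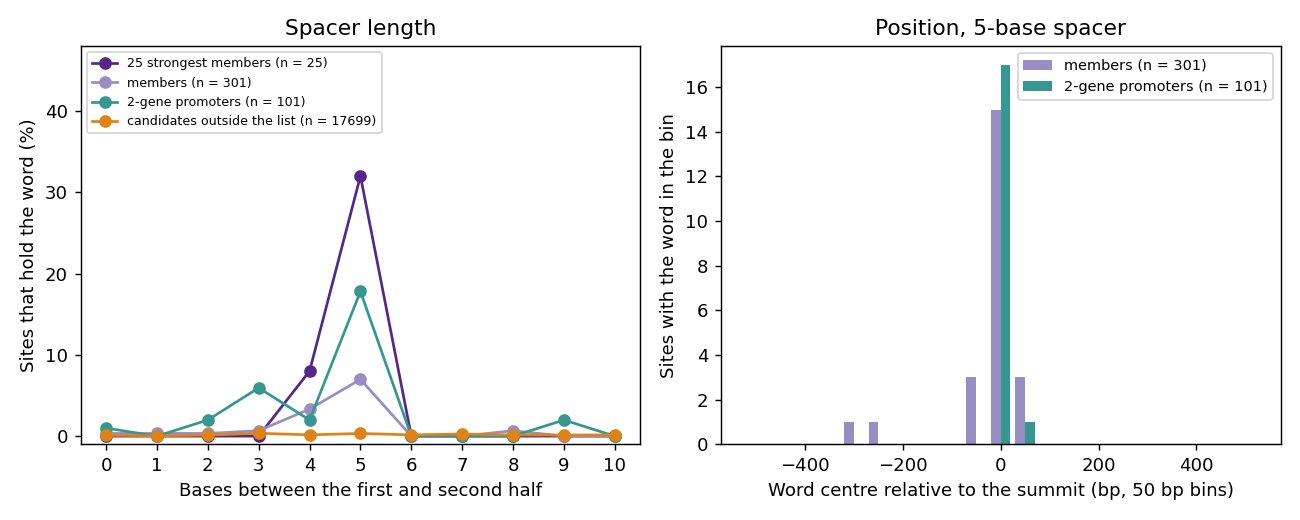
Left, share of sites (vertical, %) that hold TGCGG and TTGC at each number of bases between them (horizontal), for the 25 strongest members, all members, 2-gene promoters and candidates outside the list; right, sites with the 5-base form by position of the word's centre relative to the summit (bp, bins of 50 bp), searched to 500 bp on either side. The spacer of 5 reaches 32% in the 25 strongest and 17.8% in 2-gene promoters, and the words gather at the summit. The 25 strongest include the printed windows from which the word was read.

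Some of these sites are copies of one another and so are not independent. Runs of at least 30 identical bases were shared by 52 pairs of members, involving 23 sites (7.64%) and 6 of the 25 strongest. They fell into 5 families. One of 8 sites held F44E7.4, npp-18, mtcu-2, T02E1.2, unc-85, Y48G10A.2, vps-39 and F09E5.8, of which 6 had the spaced word. Another of 8 sites at 7 genes held both eel-1 sites, Y62F5A.12, Y32B12B.4, rps-24, ttll-4, duo-3 and C09E7.7, none with the word. T22C1.1, W04A8.6 and cacn-1 formed a family of 3, and T13C5.6 with ZK816.3 and cnk-1 with B0205.9 formed pairs. Without these 23 sites, 15 of 278 (5.4%) had the spaced word. That count still includes the printed C46F11.4, F39G3.3, ccdc-47 and swsn-3. How reads that match several places were treated is not stated, which leaves the signal at these copies uncertain.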

How the data were processed

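ChIP-seq peak lists of 2 biological replicates labelled tab-1, on ce11 per the labels, were used as deposited. Peaks of the conservative list that overlap by 1 bp were merged, keeping the strongest summit and its signal. The signal values are those the authors deposited, on a scale that is not stated; the deposited score and the −log10 of the global irreproducible discovery rate, as deposited by the authors, served to choose lists. Replicate signals came from the authors' ranked list; its 2 sets of columns matched peaks of replicate 1 and replicate 2 in 298 of 301 members each, and 0% of ranked peaks matched crosswise. For aligner, caller and depth the sources used here give nothing, and no depth-based interval was computed.

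Gene models came from Ensembl release 115 and sequence from RefSeq, both WBcel235; coordinates are 1-based. Calculations used Python 3.11.15, pandas 2.3.3, numpy 2.4.6 and scipy 1.17.1, checked on simulated sites. Candidates were merged ranked peaks under the same position rule. Gene classes came from 24 lists of symbol patterns. No hypothesis test was run, since there is 1 group. Members, lists and words were chosen with earlier results of these data known. Genes named are the 25 strongest, the strongest of each class, the extremes of the replicate ratio and the edges of the rule. Families of copies, and the genes with 2 sites or with the spaced word, were named after their values were seen.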

Additional observations from a re-analysis of the deposited data

How the results depend on the processing

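Of 133 values recomputed under alternatives, 105 stayed within the interval of the main value, or within 1.5-fold for a count, and 28 did not. The share of sites on X stayed within it under every alternative run. At a global irreproducible discovery rate of at most 0.001 that share was 21.2% (12.2 to 34), an interval that includes the 14.6% of candidates. With the other list of both replicates the Spearman correlation was 0.152 and 3.3% of background genes had a site. With a global irreproducible discovery rate of at most 0.001, 52 sites remained, 98.1% upstream, 78.8% in both own lists, with a correlation of 0.586, G+C of 45.8%, 0.477% of background genes, 4.65% of ribosomal protein genes and GCGCGC in 32.7%. A window of 500 bp upstream gave a median of −193 bp and G+C of 47.8%, and one that ends at the 5′ end gave 100% upstream by construction. The outermost 5′ end of each gene gave 2.42% of background genes, and leaving out sites near other non-coding genes 2.4%. Windows of 50 bp to either side gave G+C of 52.2%, GAGAGA in 15.9% and GCGCGC in 14.3%. Gaps of 250 and 1000 bp gave 7.59% and 30% of genes with a neighbour before them.

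With each replicate left out, so that the other's own list was used, the number of sites was 73 to 165, the share upstream 89 to 95.8%, G+C 47.5 to 49.2%, the share of background genes 0.697 to 1.53%, that of ribosomal protein genes 2.33 to 11.6% and GAGAGA 19.2 to 26.1%. The low values are those without replicate 2 for the number of sites, background genes, ribosomal protein genes, share upstream and GAGAGA. The own-list share and the correlation have no value there. The cause of the other changes was not tested. No paired analysis was possible because there is 1 group and the result comes from no test. Depth is unknown, so what it limits cannot be stated.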
